A study of Mus musculus with 12 samples.

Results

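The expression of 37 genes of blood clotting, of its natural inhibitors and of fibrinolysis was examined in mouse liver. The genes were chosen by name for their role, and comprised 18 procoagulant genes, 9 anticoagulant genes, 6 genes of fibrinolysis and 4 other plasma proteins of the system. Each gene was read by the brightest probe set (probes summarised into 1 signal) over the 12 arrays among the sets that name that gene alone. A probe set was found for 36 of the 37 genes, and Cpb2, the carboxypeptidase that slows fibrinolysis, was not analysed here. Of the 36 genes, 34 passed the filter on dim probe sets (a mean signal of at least 20 over all arrays), out of 11172 genes that did so in the whole series. Livers came from fasted C57BL/6 mice that were 8 weeks old at the start and were fed for 8 weeks, with 4 mice and 4 arrays in each of the 3 groups. These groups were the MCD+HF+Met group, which was fed a diet lacking methionine and choline and rich in fat (MCD+HF) with 0.1% metformin added, the MCD+HF group, which was fed that diet alone, and the NC group on normal chow. The diet is a model of steatohepatitis without diabetes, in lean mice.

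Blood clots when tissue factor on cells outside the bloodstream meets factor VII, and a chain of proteases then turns prothrombin into thrombin, which cuts fibrinogen into fibrin. Hepatocytes secrete most of these proteases as inactive zymogens, several of which need a modification of glutamate that depends on vitamin K. Antithrombin, heparin cofactor II and the protein C system restrain thrombin, and plasmin, formed from plasminogen by the tissue and urokinase activators, dissolves fibrin.

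Signals are on the linear scale to which the authors scaled each array (average 100), and a level of 1 probe set says nothing against that of another. Differences are in mean log2(signal + 10), which understates changes of dim probe sets, and were tested with limma over 22832 probe sets at an adjusted p under 0.05. The tissue carried its label, since all 10 hepatocyte markers were measured, with Alb at 9060 ± 855 in MCD+HF+Met, 8436 ± 616 in MCD+HF and 17085 ± 1206 in NC livers (SD, n = 4 mice each). Of these 10 markers, 8 were lower in MCD+HF than in NC livers, with a median log2 difference of -0.97. The mean of all probe sets was 163 to 172 on the MCD+HF arrays and 193 to 203 on the NC arrays, at the same trimmed average, so the brightest signals were lower on the MCD+HF arrays. In whole liver, fewer cells of a type and less RNA per cell cannot be told apart. Summed signals of 10 macrophage markers were 2806 to 4201 in MCD+HF+Met, 6412 to 9504 in MCD+HF and 3267 to 4053 in NC livers. For 9 stellate cell and myofibroblast markers these sums were 2227 to 3777 in MCD+HF+Met, 3067 to 5146 in MCD+HF and 769 to 922 in NC livers.

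On the MCD+HF diet, nearly all clotting genes of hepatocytes were lower than on normal chow, while tissue-type plasminogen activator, the urokinase receptor, thrombomodulin and the protein C receptor were higher. Of the 34 members tested, 27 fell and 4 rose, against 20.9% of all genes tested that fell and 27.3% that rose. Among these 4, Plat and Procr had NC means under 20 and passed the filter only through the diet groups, where they were brighter. The median log2 difference of the 34 was -1.12, beside 0.05 over all genes tested. The 27 lower members had 26.1% to 80.2% of their mean NC signal, with a median of 40.9%. These counts depended little on any mouse, as 27 members fell and 4 or 5 rose with each array left out in turn. With quantile normalization, which gives all arrays the same distribution, 25 members fell. The median difference of the members was then -0.64, and that of the hepatocyte markers was 0.01, with 2 of the 10 lower. The sizes of the falls thus depended on the scaling, as 11 of the 27 moved over 1.5 times, and each of these had an NC signal of at least 3015.

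**Figure D1:**
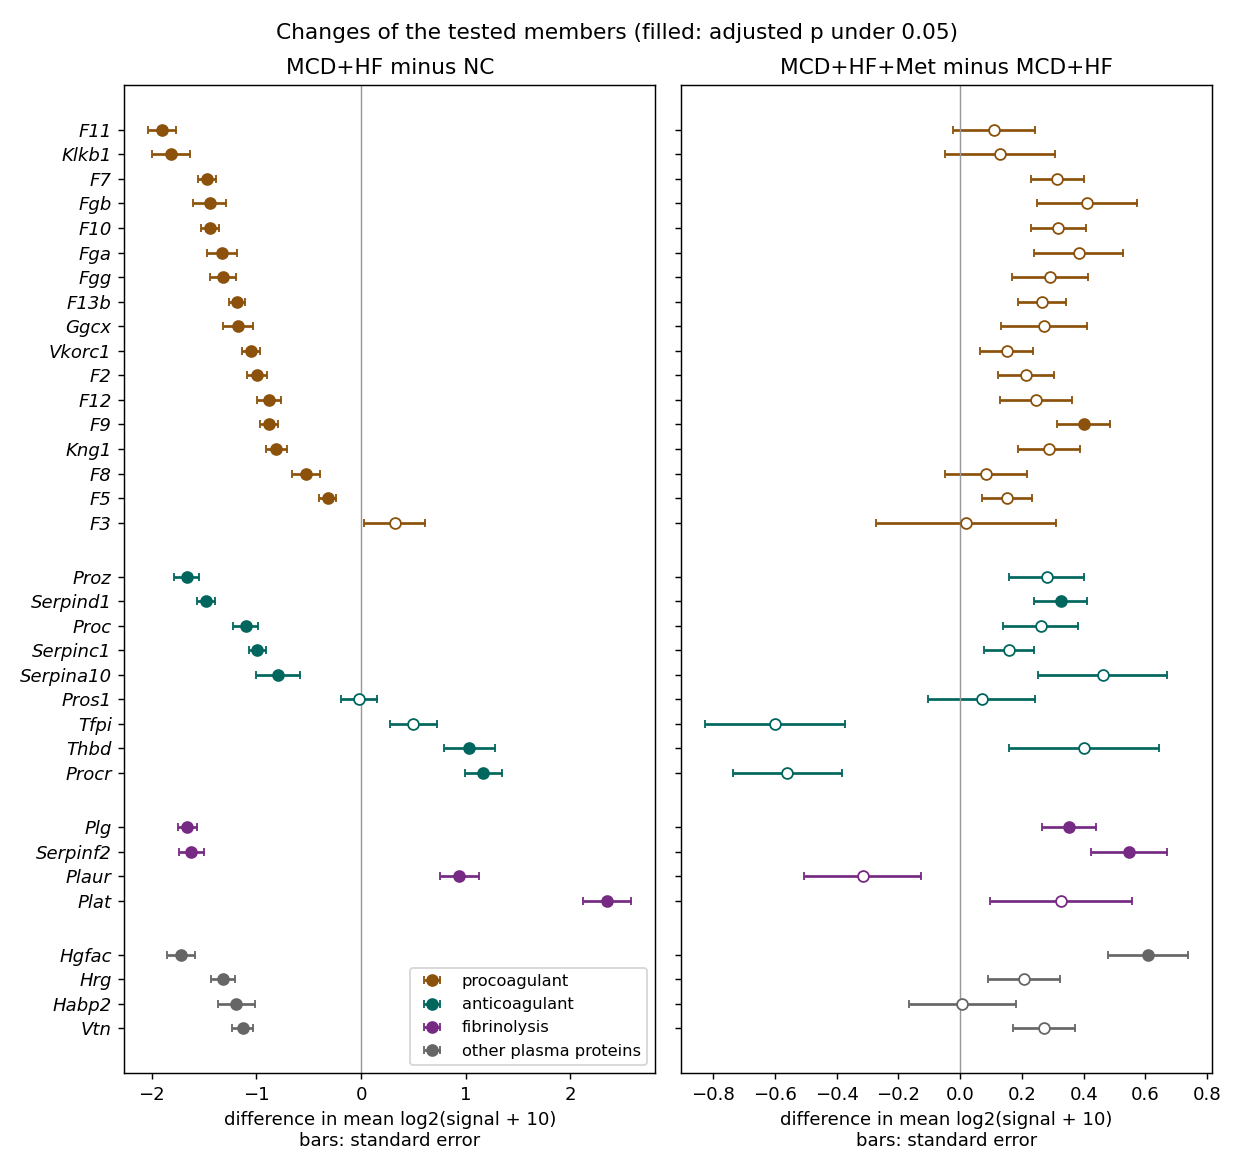
Difference in mean log2(signal + 10) of the 34 members tested, for MCD+HF minus NC (left) and MCD+HF+Met minus MCD+HF (right), with standard errors from limma and the members grouped by role. Filled points passed an adjusted p under 0.05, 27 lower and 4 higher on the left and 5 higher on the right; the axes of the panels differ in range.

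Among the procoagulant genes, 16 of 17 tested fell on the MCD+HF diet and none rose, with a median log2 difference of -1.18. The largest falls were those of F11, which encodes factor XI of the intrinsic pathway, and of Klkb1, which encodes plasma prekallikrein, the contact protease that activates factor XII. F11 had signals of 178, 162, 234 and 214 in MCD+HF livers, against 749.7, 680.0, 833 and 759.8 in NC livers. The lowest NC mouse was thus well above the highest MCD+HF mouse. The ratio of mean signals was 0.261, and the log2 difference was -1.90 (standard error 0.13, adjusted p = 2.52e-08). Klkb1, which lies next to F11 on chromosome 8, had signals of 436, 391, 523 and 601 in MCD+HF livers, against 1699, 1834, 1449 and 1929 in NC livers. Again the groups did not overlap, and the log2 difference was -1.82 (standard error 0.18, adjusted p = 8.24e-07). Both falls were of similar size with quantile normalization, at -1.92 for F11 and -1.71 for Klkb1.

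The proteases of the tissue factor and common pathways fell together. F7 (factor VII) had a mean signal of 205 ± 12.5 in MCD+HF and 588 ± 20.1 in NC livers (SD, n = 4 mice each; log2 difference -1.47, standard error 0.09, adjusted p = 3.47e-09). Its neighbour on the chromosome, F10 (factor X), had 835 ± 54.3 in MCD+HF and 2283 ± 124 in NC livers (log2 difference -1.44, adjusted p = 6.72e-09), and fell on both of its other probe sets too (-0.64 and -0.83). F2, prothrombin, had 4172 ± 538 in MCD+HF and 8280 ± 419 in NC livers (log2 difference -0.99, or -0.47 with quantile normalization). F5, factor V, the cofactor of factor X, stood at 80.2% of its NC signal, with a log2 difference of -0.32 (adjusted p = 0.00493). That small fall was lost with quantile normalization, where the value was 0.04 (adjusted p = 0.688). F8, factor VIII, the cofactor of factor IX, which in mouse liver is made chiefly by endothelial cells, stood at 67.4% (log2 difference -0.52, adjusted p = 0.00464, or -0.67 with quantile normalization). F3, tissue factor itself, was dim, with 28.3 to 79.0 in MCD+HF and 22.7 to 60.6 in NC livers. The groups overlapped, and F3 did not pass the test (log2 difference 0.32, adjusted p = 0.394).

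Of the remaining intrinsic and contact genes, F9 (factor IX) stood at 54.1%, F12 (factor XII) at 54.6% and Kng1 (kininogen) at 57.3% of the NC signal, with log2 differences of -0.88, -0.88 and -0.81. The call of Kng1 was lost with quantile normalization (-0.06, adjusted p = 0.489), but its other probe set also fell at the authors' scaling (-0.41, adjusted p = 0.00575). F13b, the carrier subunit of the fibrin-stabilising factor XIII, had 1144 ± 71.4 in MCD+HF and 2607 ± 91.1 in NC livers (log2 difference -1.18, adjusted p = 1.11e-08). F13a1, its catalytic subunit, which macrophages and platelets make, lay just under the filter with a mean of 19.7 over all arrays. It was not tested, and its signals were 16.6 to 33.2 in MCD+HF+Met, 15 to 23.3 in MCD+HF and 12.6 to 23.3 in NC livers. Among the members, the enzymes of the vitamin K cycle, Vkorc1 and Ggcx, fell with the zymogens that need them. Vkorc1, the vitamin K epoxide reductase, had 1759 ± 149 in MCD+HF and 3654 ± 183 in NC livers (log2 difference -1.05). Ggcx, the gamma-glutamyl carboxylase, had 71.2 ± 7.59 in MCD+HF and 174 ± 25.8 in NC livers (log2 difference -1.18), and fell on its other probe set as well (-0.82). Outside the members, Vkorc1l1 (Vkorc1-like 1) had 301 ± 24.6 in MCD+HF and 323 ± 35.1 in NC livers. It did not pass the test (log2 difference -0.09, adjusted p = 0.547).

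Fibrinogen, the substrate of thrombin, is built of 3 chains whose genes lie side by side on chromosome 3, and all 3 were lower on the diet by similar amounts. Fga had 6411 ± 1152 in MCD+HF and 16010 ± 2043 in NC livers (SD, n = 4 mice each; log2 difference -1.33, standard error 0.14, adjusted p = 2.40e-06). Fgb had 6403 ± 1069 in MCD+HF and 17502 ± 2993 in NC livers (log2 difference -1.45, standard error 0.16). Fgg had 5591 ± 867 in MCD+HF and 13904 ± 1589 in NC livers (log2 difference -1.32, standard error 0.12). No MCD+HF mouse reached any NC mouse for any chain. With quantile normalization the 3 differences were -0.45, -0.55 and -0.53, still past the threshold. Promoters of the 3 chains are shown because the genes moved together, and that of F9 because it was the procoagulant gene that passed the test with metformin. The sequences are those of RefSeq (GRCm38.p6), 250 bases before to 50 after the start of each gene, read 5′ to 3′ on the strand of the gene. Capitals mark matches on either strand to motifs of liver promoters: the HNF1 core, CAAAGTNCA (HNF4), TTGCNNAA (C/EBP) and CTGGGAA (IL-6 response).
Fga promoter, chr3:83025903-83026202, plus strand: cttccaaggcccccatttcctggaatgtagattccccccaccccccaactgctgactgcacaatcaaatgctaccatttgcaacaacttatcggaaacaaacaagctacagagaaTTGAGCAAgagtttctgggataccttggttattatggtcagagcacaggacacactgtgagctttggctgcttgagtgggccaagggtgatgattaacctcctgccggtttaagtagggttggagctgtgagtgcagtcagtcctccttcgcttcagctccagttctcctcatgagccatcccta
Fgb promoter, chr3:83049814-83050113, minus strand: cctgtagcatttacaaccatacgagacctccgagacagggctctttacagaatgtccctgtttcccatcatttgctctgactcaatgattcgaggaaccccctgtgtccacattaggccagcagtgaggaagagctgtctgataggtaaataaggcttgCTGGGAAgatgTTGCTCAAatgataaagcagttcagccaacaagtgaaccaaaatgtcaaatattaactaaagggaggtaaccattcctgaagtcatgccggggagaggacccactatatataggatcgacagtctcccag
Fgg promoter, chr3:83007474-83007773, plus strand: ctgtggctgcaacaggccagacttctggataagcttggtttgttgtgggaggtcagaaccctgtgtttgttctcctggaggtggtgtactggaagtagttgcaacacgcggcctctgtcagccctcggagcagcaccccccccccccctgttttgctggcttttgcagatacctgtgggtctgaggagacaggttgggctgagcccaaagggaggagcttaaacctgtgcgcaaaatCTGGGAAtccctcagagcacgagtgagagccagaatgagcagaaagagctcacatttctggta
F9 promoter, chrX:59999214-59999513, plus strand: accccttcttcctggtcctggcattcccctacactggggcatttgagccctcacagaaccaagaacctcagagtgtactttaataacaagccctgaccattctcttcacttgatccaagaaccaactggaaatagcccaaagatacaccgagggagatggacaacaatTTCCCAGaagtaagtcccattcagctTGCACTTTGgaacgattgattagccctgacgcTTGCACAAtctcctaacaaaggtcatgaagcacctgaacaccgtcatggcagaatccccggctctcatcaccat

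The Fga window held 1 match, to C/EBP (TTGAGCAA, read on the opposite strand, from 135 bases before the start). The Fgb window held the IL-6 motif from 91 bases and a C/EBP match, TTGCTCAA, from 80 bases before the start. In Fgg the IL-6 motif stood from 13 bases before the start. F9 held matches to HNF4 (TGCACTTTG), C/EBP (TTGCACAA) and the IL-6 motif (TTCCCAG, the opposite strand) within 82 bases of the start. Promoters of 30 members were found. The C/EBP letters were in 37.5% of their 32 promoters and in 10.8% of all 32851 promoters of that length. The IL-6 letters were in 15.6% of the members' promoters and 11.1% of all, and those of HNF4 in 6.25% of the members' promoters and 1.41% of all, while the HNF1 core was in none of the members' promoters and in 0.122% of all. For HNF4 the members' share was 2 promoters, those of F9 and Serpind1. The 12 member promoters with C/EBP letters included that of Cpb2, which was not analysed, and those of Plaur and Procr, which rose on the diet. All of these are matches of letters, not measured binding.

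**Figure D2:**
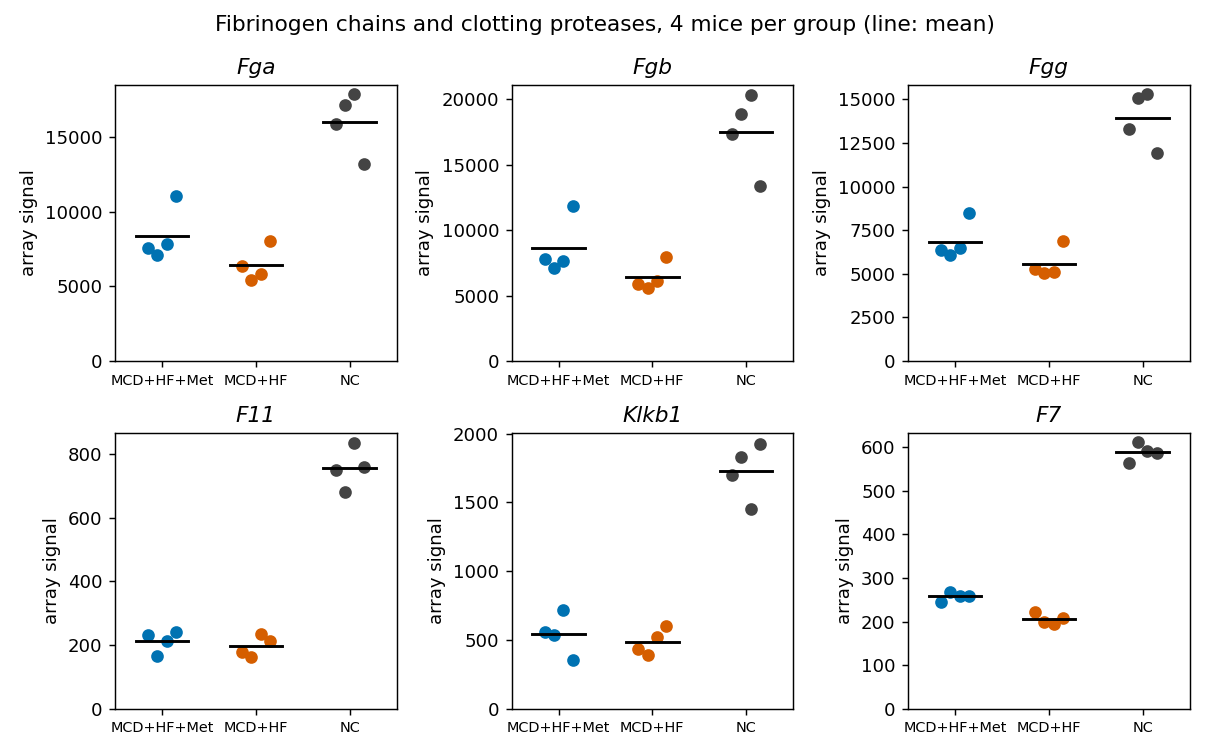
Array signal (linear axis from 0) of the 3 fibrinogen chains, F11, Klkb1 and F7 in the liver of each mouse; each point is 1 mouse and each line is the mean of 4 mice. All MCD+HF mice were below all NC mice for each gene, with F11 at 26.1% of the NC mean, and MCD+HF+Met means were above those of MCD+HF, with F7 at 258 against 205.

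Of the 9 anticoagulant genes tested, 5 fell, 2 rose and 2 did not pass the test. Of all genes tested, 20.9% fell and 27.3% rose. The anticoagulant genes that fell encode plasma proteins, and those that rose encode membrane receptors. Proz, protein Z, the cofactor through which the serpin encoded by Serpina10 inhibits factor X, lies beside F10 on the chromosome and fell most. Its signals were 442, 385, 492 and 404 in MCD+HF livers, against 1366, 1375, 1541 and 1266 in NC livers. All MCD+HF mice lay far below the NC mice (log2 difference -1.67, standard error 0.12, adjusted p = 3.86e-08), and its other probe set fell by 1.31. Serpina10 had 1694 ± 184 in MCD+HF and 3015 ± 781 in NC livers (log2 difference -0.79, adjusted p = 0.00602, or -0.49 with quantile normalization). Serpinc1, antithrombin, stood at 50.3% of the NC signal (log2 difference -0.99, or -0.22 with quantile normalization). Serpind1, heparin cofactor II, stood at 35.7% (log2 difference -1.48), and Proc, protein C, at 46.6% (-1.10). Pros1, protein S, the cofactor of activated protein C that other liver cells also make, was level, with 314 ± 76.5 in MCD+HF and 313 ± 34.5 in NC livers (log2 difference -0.02, standard error 0.17, adjusted p = 0.951).

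Thbd, thrombomodulin, which turns thrombin into an activator of protein C, had signals of 135, 147, 91.9 and 63.5 in MCD+HF livers, against 37.5, 37.7, 63.3 and 48.1 in NC livers. The groups were apart by a narrow margin (log2 difference 1.03, standard error 0.24, adjusted p = 0.00274). Procr, the endothelial receptor that presents protein C to that complex, had 52.3, 49.0, 33.3 and 29.2 in MCD+HF livers, against 12.6, 10, 14.0 and 12.6 in NC livers. No mouse overlapped between the groups (log2 difference 1.17, standard error 0.18, adjusted p = 6.38e-05). As the NC mean of Procr was under 20, it passed the filter only through the diet groups, where it was brighter. Tfpi, the inhibitor of the tissue factor pathway, had 79.5 to 92.5 in MCD+HF and 35.6 to 73.7 in NC livers. Although these groups did not overlap either, Tfpi did not pass the test (log2 difference 0.50, adjusted p = 0.0859). Another of its 4 probe sets did (0.53, adjusted p = 0.0281), as did the main one without MCD+HF+Met replicate 2 or 4. The main one also passed with only the 2 groups compared (0.50, adjusted p = 0.0399). In 21 of 25 alternatives Tfpi still did not pass. Of the 8 endothelial markers, 2 were higher and 3 lower in MCD+HF than in NC livers, with a median log2 difference of 0.02. Their part in these differences was not tested.

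**Figure D3:**
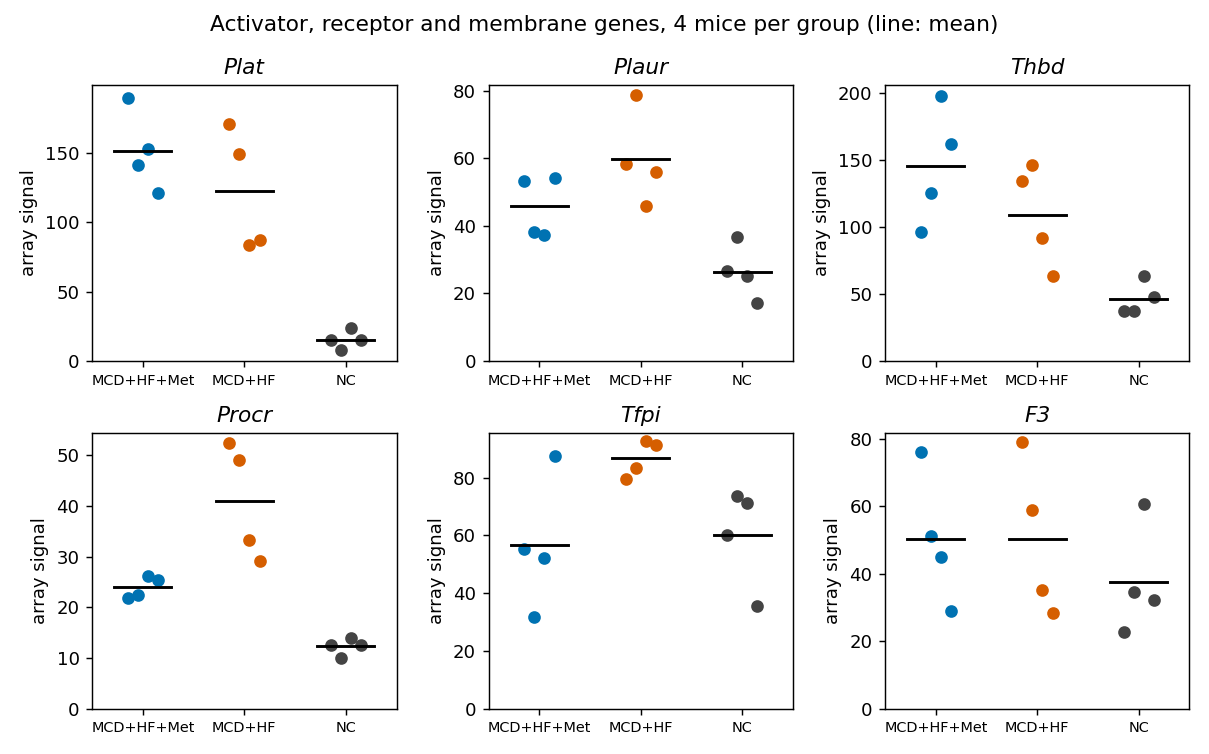
Array signal (linear axis from 0) of Plat, Plaur, Thbd, Procr, Tfpi and F3 in the liver of each mouse; each point is 1 mouse and each line is the mean of 4 mice. Plat had means of 151 in MCD+HF+Met, 122 in MCD+HF and 15.5 in NC livers, and Procr lay lower in every MCD+HF+Met mouse than in every MCD+HF mouse.

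In fibrinolysis, the plasma zymogen and its plasma inhibitor fell while the tissue activator and the urokinase receptor rose. Plg, plasminogen, had signals of 3560, 3440, 3738 and 4200 in MCD+HF livers, against 11147, 12032, 12345 and 11593 in NC livers. Every MCD+HF mouse was far below every NC mouse (log2 difference -1.66, standard error 0.09, adjusted p = 1.46e-09, or -1.04 with quantile normalization). Serpinf2, alpha-2-antiplasmin, the fast inhibitor of plasmin, had 1225, 1139, 966 and 1505 in MCD+HF livers, against 3757, 3676, 4100 and 3278 in NC livers. This was again a fall with no overlap (log2 difference -1.62, standard error 0.12, adjusted p = 5.26e-08). Plat, the tissue-type plasminogen activator, had 171, 149, 83.6 and 86.8 in MCD+HF livers, against 15.3, 7.8, 23.5 and 15.5 in NC livers. MCD+HF replicates 1 and 2 were the higher pair, and the lowest MCD+HF mouse was still above all NC mice. The log2 difference was 2.35 (standard error 0.23, adjusted p = 7.61e-07). Like Procr, Plat had an NC mean under 20 and passed the filter only through the diet groups, and its log2 difference ran from 1.67 to 3.01 over the alternatives, so its size is uncertain. Its other probe set was too dim to test, at 4.08 ± 2.51 in MCD+HF and 11.7 ± 1.48 in NC livers, and did not show the rise.

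Plaur, the urokinase receptor of leukocytes and other migrating cells, had 58.2, 78.6, 45.9 and 55.9 in MCD+HF livers, against 26.7, 36.6, 25.3 and 17.2 in NC livers. All MCD+HF mice were higher (log2 difference 0.94, standard error 0.19, adjusted p = 8.45e-04). Plau, the urokinase-type activator, was below the filter, with single mice between 0.4 and 17.5 over all groups, and was not tested. Of the macrophage markers, 7 of 10 were higher and 1 lower in MCD+HF than in NC livers, and 8 of 9 stellate cell and myofibroblast markers were higher. All 4 cholangiocyte markers measured were higher too, with summed signals of 273 to 362 in MCD+HF and 22.8 to 67.6 in NC livers. Each of the 4 had an NC mean under 20 and passed the filter only through the diet groups, which limits this count. The same held for Trem2, Gpnmb and Itgax among the macrophage markers and Col1a1 among the stellate cell markers. The part of macrophages, stellate cells, myofibroblasts and cholangiocytes in the rise of Plat, Plaur and Thbd was not tested.

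The 4 other plasma proteins all fell. Hgfac, the activator of hepatocyte growth factor, a protease related to factor XII, had 297, 289, 444 and 400.1 in MCD+HF livers, against 1166, 1138, 1154 and 1272 in NC livers. The groups lay far apart (log2 difference -1.72, standard error 0.13, adjusted p = 5.29e-08). Hrg, histidine-rich glycoprotein, which binds heparin and plasminogen, stood at 40.4% of the NC signal (log2 difference -1.32, or -0.81 with quantile normalization). Habp2, a plasma protease that can activate factor VII and urokinase, stood at 42.1% (-1.19). Vtn, vitronectin, an adhesive protein of plasma and matrix, stood at 45.4% (-1.13, or -0.49 with quantile normalization).

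Metformin raised 5 members relative to the MCD+HF diet alone and lowered none, and each of the 5 had been lowered by the diet. They were F9, Serpind1, Serpinf2, Plg and Hgfac, 5 of 34 members tested, against 1.64% of all genes tested that rose and 2.34% that fell. The median log2 difference of the 34 was 0.27, beside 0.01 over all genes tested, and 31 of the 34 values were above 0, as were 51.6% of those of all genes. In 11 members all MCD+HF+Met mice were above all MCD+HF mice, against 6.44% of all genes, and in 1, Procr, all were below, against 6.19%. At an unadjusted p under 0.05, 17 members were higher and 2 lower, against 10% of all genes that were higher and 9.77% that were lower. With the methods' t-test after adjustment none passed. For all 27 members that the diet had lowered, the mean in MCD+HF+Met livers was between that of MCD+HF and that of NC livers, as it was for 70.3% of the 2330 genes lower on the diet. The comparisons share the MCD+HF arrays, so a low MCD+HF value enters both.

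The changes of the 5 were modest. Hgfac had signals of 607, 576, 510.3 and 481 in MCD+HF+Met livers, against 297, 289, 444 and 400.1 in MCD+HF livers. The lowest MCD+HF+Met mouse was above the highest MCD+HF mouse, and the ratio of mean signals was 1.52 (log2 difference 0.61, standard error 0.13, adjusted p = 0.0190). Serpinf2 had 2039, 1643, 1623 and 1716 in MCD+HF+Met livers, against 1225, 1139, 966 and 1505 in MCD+HF livers. These groups were also apart, with MCD+HF replicate 4 the nearest (log2 difference 0.55, standard error 0.12, adjusted p = 0.0232). F9 had 1519, 1509, 1560 and 1895 in MCD+HF+Met livers, against 1183, 1195, 1246 and 1261 in MCD+HF livers. Here MCD+HF+Met replicate 4 was the highest (log2 difference 0.40, standard error 0.09, adjusted p = 0.0205). Plg had 4794, 4354, 4474 and 5491 in MCD+HF+Met livers, against 3560, 3440, 3738 and 4200 in MCD+HF livers. All treated mice were higher, although MCD+HF+Met replicate 2 was close to MCD+HF replicate 4 (log2 difference 0.35, standard error 0.09, adjusted p = 0.0395). Serpind1 had 1507, 1430, 1367 and 1426 in MCD+HF+Met livers, against 1177, 1026, 1110 and 1261 in MCD+HF livers. It passed the test narrowly (log2 difference 0.33, standard error 0.09, adjusted p = 0.0482).

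**Figure D4:**
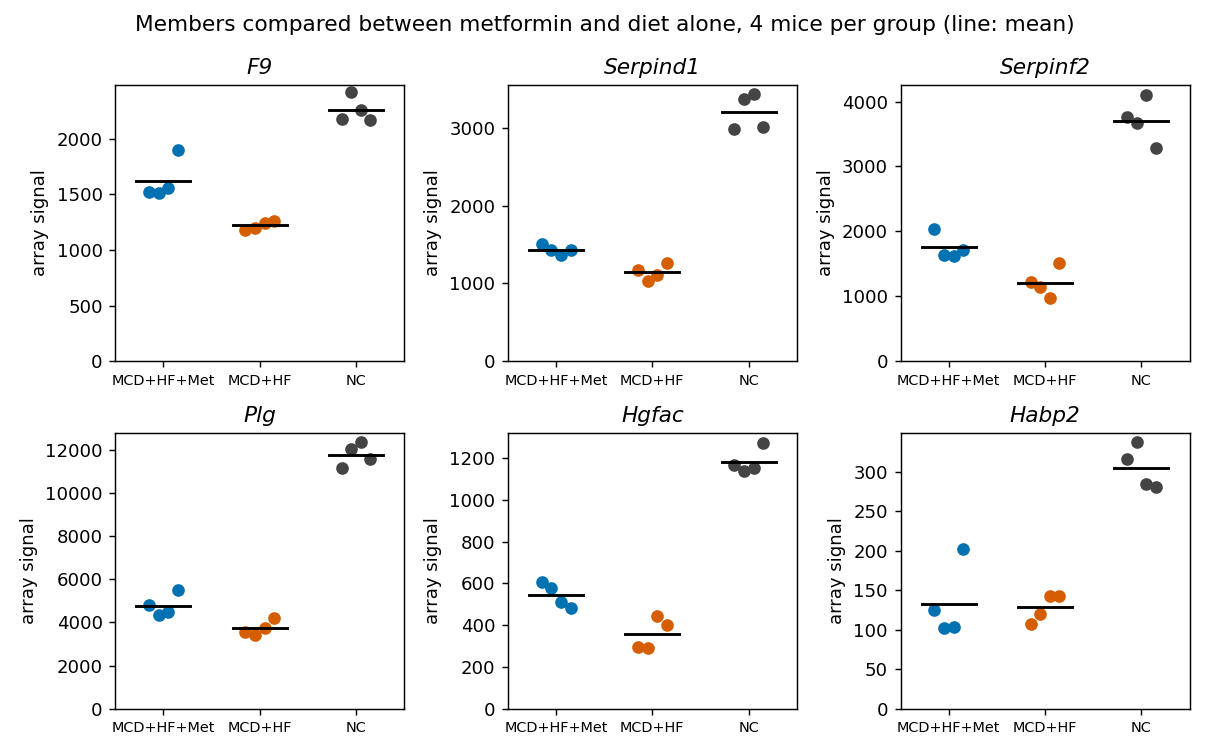
Array signal (linear axis from 0) of the 5 members that rose with metformin and of Habp2, in the liver of each mouse; each point is 1 mouse and each line is the mean of 4 mice. For the 5, all MCD+HF+Met mice lay above all MCD+HF mice and below all NC mice, while the chosen probe set of Habp2 had means of 133 in MCD+HF+Met and 128 in MCD+HF livers.

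None of these 5 calls held under every alternative. Without MCD+HF replicate 2, none of the members passed limma's test (adjusted p of F9 then 0.0690), and without MCD+HF+Met replicate 1 or 2 only 1 did. Without MCD+HF replicate 1 or 3 it was 2, and without NC replicate 1 or 2, or MCD+HF+Met replicate 4, it was 3. The log2 differences changed little in the same settings, from 0.52 to 0.72 for Hgfac and from 0.28 to 0.41 for Plg over all alternatives. Array controls of RNA integrity also moved: signal at the 3′ end of beta-actin, divided by that at its 5′ end, was 1.74 ± 0.114 in MCD+HF+Met, 1.54 ± 0.0694 in MCD+HF and 1.73 ± 0.140 in NC livers (SD, n = 4 mice each). The same ratio of Gapdh was 0.757 ± 0.0451 in MCD+HF+Met, 0.699 ± 0.0123 in MCD+HF and 0.710 ± 0.0122 in NC livers. The part of RNA integrity in these changes was not tested. The median log2 difference of the 10 hepatocyte markers with metformin was 0.08.

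Of the other procoagulant genes, several came close to the threshold with metformin. F7 had 245, 267, 259.8 and 258 in MCD+HF+Met livers, against 222, 199, 194 and 207 in MCD+HF livers, a small difference with no overlap (log2 difference 0.31, adjusted p = 0.0573). F10 (0.32, adjusted p = 0.0631) and F13b (0.27, adjusted p = 0.0699) also had no overlap and did not pass. F7 passed with the stricter filter (adjusted p = 0.0420), and F10 on another probe set (0.44, adjusted p = 0.0396). The fibrinogen chains had log2 differences of 0.38 (Fga), 0.41 (Fgb) and 0.29 (Fgg), with adjusted p of 0.157, 0.175 and 0.212. In each of the 3, MCD+HF+Met replicate 4 was the highest of its group, at 11046 for Fga, 11879 for Fgb and 8491 for Fgg. The 2 genes that the diet had lowered most, F11 and Klkb1, had only 0.11 (adjusted p = 0.707) and 0.13 (adjusted p = 0.750), with overlapping groups.

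Probe sets of the same gene differed for Habp2 and Vtn. The main probe set of Habp2 had 125, 102, 104 and 202 in MCD+HF+Met livers, against 108, 119.6, 142 and 143 in MCD+HF livers, with much overlap (log2 difference 0.01, adjusted p = 0.989). Its other, dimmer probe set had 52.9 ± 15.7 in MCD+HF+Met and 20.9 ± 5.15 in MCD+HF livers (log2 difference 1.01, adjusted p = 0.00789). Vtn had 5640 ± 351 in MCD+HF+Met and 4669 ± 329 in MCD+HF livers (0.27, adjusted p = 0.148), and its other probe set rose (0.42, adjusted p = 0.0310).

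None of the 4 genes that the diet had raised passed the test with metformin (limma), and 1 of them, Procr, did at an unadjusted p under 0.05. Their directions differed. Procr had 21.9, 22.5, 26.1 and 25.3 in MCD+HF+Met livers, against 52.3, 49.0, 33.3 and 29.2 in MCD+HF livers. Each treated mouse was lower than each MCD+HF mouse, but the test was not passed (log2 difference -0.56, standard error 0.18, adjusted p = 0.0920). Tfpi was not among the 4 genes that the diet had raised, as it had not passed that test. It had 55.2, 31.7, 52.2 and 87.4 in MCD+HF+Met livers, against 79.5, 83.4, 92.5 and 91.3 in MCD+HF livers. Only MCD+HF+Met replicate 4 lay in the MCD+HF range (log2 difference -0.60, standard error 0.23, adjusted p = 0.159, unadjusted p = 0.0179). Plaur had 37.4 to 54.2 in MCD+HF+Met and 45.9 to 78.6 in MCD+HF livers, and these ranges overlapped (log2 difference -0.32, adjusted p = 0.386). Plat had 190, 141, 153 and 121 in MCD+HF+Met livers, within or above the MCD+HF range (log2 difference 0.33, adjusted p = 0.471). Thbd had 96.6, 126, 198 and 162 in MCD+HF+Met livers, also within or above the MCD+HF range (log2 difference 0.40, adjusted p = 0.389). Beside these, 6 of the 10 macrophage markers fell with metformin and none rose, and 2 of the 9 stellate cell and myofibroblast markers fell. Their part in the values of Procr, Tfpi and Plaur was not tested.

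Relative to normal chow, the livers of metformin-treated mice still had low levels of most clotting genes. Of the 34 members, 25 were lower and 4 higher in MCD+HF+Met than in NC livers, against 18.6% of all genes tested that were lower and 25.6% that were higher. The 27 members lowered by the diet had 28.2% to 88.9% of their mean NC signal in MCD+HF+Met livers, with a median of 50.8%. With quantile normalization the median log2 difference of the 34 members was -0.38, beside -0.88 at the authors' scaling, and that of F9 was -0.28, beside -0.48. The exceptions among the 27 were F5, at 88.9% (log2 difference -0.17, adjusted p = 0.116), and Serpina10, at 80.5% (-0.33, adjusted p = 0.226). Serpina10 in MCD+HF+Met livers ranged from 1903 to 3728, and without replicate 4, the highest, it was lower than in NC livers (log2 difference -0.56, adjusted p = 0.0182), as it was without NC replicate 4 (-0.53, adjusted p = 0.0395). F9 was at 71.8% of the NC signal, while F11 stayed at 28.2% and Klkb1 at 31.4%. Plat (log2 difference 2.68, adjusted p = 2.69e-07) and Thbd (1.44, adjusted p = 2.29e-04) were also higher than in NC livers. For Plat, whose NC mean was under the filter, the value ran from 1.94 to 3.37 over the alternatives. Procr (0.61, adjusted p = 0.0121) and Plaur (0.62, adjusted p = 0.0158) were higher too. The NC mean of Procr was also under the filter, and its value ran from 0.34 to 0.97 over the alternatives. The call of Plaur was lost with the methods' t-test (adjusted p = 0.0615) and without NC replicate 4 (adjusted p = 0.0516). With quantile normalization, Fga (-0.16, adjusted p = 0.268), Fgb (-0.21, adjusted p = 0.203) and Kng1 (0.12, adjusted p = 0.195) no longer passed. The other probe set of Kng1 did not pass either (-0.19, adjusted p = 0.181). F10, at -1.12 on its main probe set, passed on another (-0.39, adjusted p = 0.00952) but not on the remaining one (-0.27, adjusted p = 0.117). The call of F8 was lost without MCD+HF+Met replicate 3 (adjusted p = 0.0508).

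Other genes that act with the members were read by the same fit. Of 25 listed, 16 were tested, and on the MCD+HF diet 8 of these rose and 4 fell. Of all genes tested, 27.3% rose and 20.9% fell. Among the 8 was Thbs1, whose NC mean of 17.9 was under the filter, so that it passed only through the diet groups. Serping1, the C1 inhibitor, which also blocks kallikrein and factor XII, had 2010 ± 216 in MCD+HF and 7573 ± 470 in NC livers (SD, n = 4 mice each; log2 difference -1.91, adjusted p = 7.89e-09). Anxa2, a cell surface receptor of plasminogen and its tissue activator, had 1085 ± 304 in MCD+HF and 117 ± 13.4 in NC livers (log2 difference 3.07, adjusted p = 1.09e-09). Plgrkt, a plasminogen receptor of the membrane, had 119 ± 19.6 in MCD+HF and 40.6 ± 3.82 in NC livers (1.34). Gas6, a relative of protein S that depends on vitamin K, had 542 ± 61.3 in MCD+HF and 153 ± 21.0 in NC livers (1.76), and Vwf, the carrier of factor VIII made by endothelium, 47.3 ± 8.07 in MCD+HF and 20.8 ± 4.48 in NC livers (0.89). Pf4, a chemokine of platelets, rose as well, but Itga2b, another platelet marker, did not pass the test (log2 difference -0.22, adjusted p = 0.318). Ppbp and Gp9, platelet markers outside this list, were too dim to test. Ppbp had a mean of 19.7 in MCD+HF and 26.8 in NC livers, and Gp9 4.9 in MCD+HF and 5.7 in NC livers. The part of platelets in the rise of Pf4 was not tested. Metformin raised 1 of the 16, Serping1, to 2853 ± 587 in MCD+HF+Met livers (log2 difference 0.49, adjusted p = 0.0379), and lowered 1, Plgrkt, to 58.8 ± 13.4 (log2 difference -0.92, adjusted p = 0.00519). Of all genes tested, 1.64% rose and 2.34% fell with metformin.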

How the data were processed

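RNA from the livers of 12 mice was hybridised by the authors to Affymetrix Mouse Genome arrays, 1 array a mouse, and read with GCOS at default settings, per the labels and the methods. The deposited values are signal intensities on a linear scale, scaled by the authors to an average of 100 on each array (the mean after leaving out 2% at each end was 100), for 45101 probe sets with 64 controls. GCOS calls were not used here. Groups and replicate numbers came from the sample titles.

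From these, log2(signal + 10) was computed, controls and probe sets with a mean under 20 were left out, and the 22832 left entered a joint linear model of all 3 groups (limma 3.58.1, R 4.3.3; lmFit, eBayes with a trend of the variance, 9 residual degrees of freedom), with Benjamini-Hochberg adjustment over all of them. Shares over all genes used the brightest tested probe set of each of 11172 genes. Gene names come from GEO's platform annotation, where 34945 probe sets had 1 symbol, 932 several and 9160 none. All members are reported. Signals of every mouse are given for members called with metformin and for the 6 largest falls and all rises with the diet, and for a few others chosen after their values were seen. The members and lists were chosen with earlier results of these data known. The fit was checked on simulated data. With 4 arrays a group, precision is limited, and p-values reflect differences among mice. The labels name no batch. Alternative settings tried were an offset of 0 or 32, a filter at 50 or none, quantile normalization, centring on the median, robust variances, blocking on replicate number, only the groups compared, the methods' t-test, each array left out and other probe sets. Plots used matplotlib 3.10.9 under Python 3.11.15.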

Additional observations from a re-analysis of the deposited data

Results flagged for a closer look

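Over 108 groups of 4 mice (36 members in 3 groups), 7 held a mouse that stood apart from the other 3, where chance gives about 5.4. In the MCD+HF+Met group it was replicate 4 each time, the highest for F2 (5340.3, next 4707), F9 (1895, next 1560), Fgb (11879, next 7770), Fgg (8491, next 6470) and Serpina10 (3728, next 2152). In the MCD+HF group it was also replicate 4, for F8 (94.7, next 67.6) and Fgg (6883, next 5293). Among the 27 members lowered by the diet, MCD+HF+Met replicate 4 was the highest of its group for 18 and MCD+HF replicate 4 for 18. In the NC group, replicate 3 was the highest for 12 and replicate 4 for 6. The mean of all probe sets was also the highest of its group for MCD+HF+Met replicate 4 (177) and MCD+HF replicate 4 (172). For NC replicate 3 this mean was 203, beside 202 for NC replicate 2. No such count was made over all genes. The cause was not tested.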

How the results depend on the processing

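Of the members called for MCD+HF against NC, 29 of 31 passed under every alternative in which they were tested. For MCD+HF+Met against NC it was 23 of 29, and for MCD+HF+Met against MCD+HF it was 0 of 5. Probe sets higher with metformin than on MCD+HF alone numbered 282, but 166 without a filter, 438 with median centring, 3 with the methods' t-test and 86 to 317 with each array left out. Probe sets lower numbered 504, but 310 without a filter, 5 with that t-test and 168 to 528 with each array left out. The p-values of that t-test were adjusted here over all probe sets kept, with no limit on fold change or GCOS calls. The methods name such limits and no adjustment. Members higher numbered 5, but 3 without a filter, 3 with only both groups compared, 0 with the t-test and 0 to 5 with each array left out. With the filter at 50, 2 members rather than 4 were higher than NC, in MCD+HF+Met as well as MCD+HF livers, since the dim ones were not tested. With quantile normalization the log2 difference of F5 was 0.0384 for MCD+HF against NC, and that of Kng1 was 0.12 for MCD+HF+Met against NC. Samples share only replicate numbers (12 same-numbered pairs correlated at -0.134 to 0.251, of which 2 exceeded 0.1). With the replicate number as a block, 261 probe sets were higher and 464 lower with metformin, and 4 members were higher (Serpind1 was lost, adjusted p = 0.0746). Causes were not tested. Dim members such as Procr and Plaur are limited by their signal over background.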
